A study of Mus musculus with 16 samples.

Results

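The genes described here are the neighbours of Rgs20 on mouse chromosome 1. Every gene in the count tables that starts below 50 Mb on that chromosome (mm10/GRCm38) and has at least 10 counts in 4 or more of the 16 libraries was taken. Rgs20 itself, 3 further genes and 9 genes of channel, respiratory chain, ribosomal and collagen families were left out by name, which leaves 178 members of the 38924 genes in the tables. Apart from those names, position and a minimum of counts alone decide membership. Of the 178, 147 are protein coding, 9 are antisense transcripts, 6 are long intergenic RNAs and the others are pseudogenes or small classes.

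The series is polyA RNA-seq of the periaqueductal gray (PAG), a midbrain region of pain control and a site of morphine action, from male mice. Its purpose, per the design text, is to show how morphine tolerance and RGSz1 affect expression there. RGSz1 is the protein of Rgs20 and speeds GTP hydrolysis by the G protein Gz. There were 4 groups of 4 libraries each: RGSz1 KO given morphine, wild type (WT) given morphine, RGSz1 KO naive and WT naive. Each library pooled PAG punches of 2 animals. The labels give no strain, age, deleted exon, origin of the allele, morphine dose or duration, and they name no vehicle group, so the naive groups are those set against morphine here. The pools are labelled as biological replicates, and a p-value measures the spread between pools.

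Genes on one chromosome are inherited together, and the nearer they lie to each other the more rarely recombination parts them. When a targeted allele is made in embryonic stem cells of one strain and crossed into another, DNA of the donor strain on both sides of the target is carried along, and it can hold expression variants of its own. Genes close to a targeted locus can also respond to the altered DNA itself. Distance from Rgs20 is therefore the scale on which the members are ordered below, and the DNA sequence of these animals was not analysed here.

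Rgs20, on the minus strand at chr1:4909576-5070285, was checked first. It had 12.3, 11.9, 12.3 and 14.0 counts per 1000000 counts on genes (CPM) in the 4 naive libraries labelled KO, against 11.6, 13.0, 13.4 and 13.1 CPM in the 4 naive WT libraries. With morphine it had 13.0, 12.0, 11.4 and 11.9 CPM in libraries labelled KO and 14.4, 13.3, 11.9 and 12.7 CPM in WT libraries. The groups overlapped in both treatments, with a log2 fold change of -0.02 ± 0.07 (SE, adjusted p = 0.943) in naive and -0.11 ± 0.07 (SE, adjusted p = 0.669) in morphine libraries. The gene total thus does not separate the genotypes. It counts exons kept by a targeted allele too, and which exons were removed is not in the labels, so "KO" below means a library labelled KO.

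Libraries held 19.1 to 55.0 Mcounts on genes (1 Mcount is 1000000 counts). KO morphine libraries were the shallowest, with 27.4 ± 9.51 Mcounts, against 37.2 ± 11.5 Mcounts in WT morphine, 42.8 ± 11.3 Mcounts in KO naive and 41.8 ± 11.1 Mcounts in WT naive libraries (SD, n = 4 each). Neuronal Snap25 lay between 2018 and 2461 CPM in all 16. Tph2, the serotonin-synthesising enzyme of the raphe nuclei beside the PAG, ranged from 13.7 to 568 CPM. KO morphine library 3 and WT naive library 2 stood apart most in genes of the meninges, with Igf2 at 150 and 219 CPM, against 20.5 to 54.3 CPM in the other 14. KO morphine library 1 stood apart less, with 54.3 CPM of Igf2. Its Ogn was at 12.4 CPM, against 28.9 and 36.4 CPM in those 2 and 1.69 to 2.88 CPM in the rest. KO morphine library 1 stays in the fits below that leave out the other 2 together. In tissue libraries fewer cells of a type and less RNA per cell cannot be told apart.

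In naive animals 16 of the 176 members that entered the test differed between KO and WT libraries, 7 higher and 9 lower, by edgeR's quasi-likelihood test with a Benjamini-Hochberg adjusted p under 0.05 over all 18111 genes tested ("called" from here on). That is 9.09% of the members, against 0.906% of all genes tested (0.442% higher and 0.464% lower). With morphine 10 members were called, 5 higher and 5 lower, or 5.68% against 0.53% of all genes (0.254% higher and 0.276% lower). These 10 were all among the 16, each with the same sign, where 0.243% of all genes were called in both treatments with the same sign. The naive and morphine comparisons share no library but share 1 fit, and so a spread estimated from all 16 libraries. Fits of only the groups compared called 6 members in both treatments. Without KO morphine library 4 the morphine count was 6, and the count in both treatments was 6 without KO morphine library 1 or 4. Without KO morphine library 3 and WT naive library 2 together, 13 members were called in naive animals (0.572% of all genes), 16 with morphine (1.30% of all genes) and 10 in both.

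The mean of the naive and morphine fold changes, which uses all 8 KO and 8 WT libraries, called 24 members, 11 higher and 13 lower, or 13.6% against 1.53% of all genes (0.685% higher and 0.845% lower). The rest of chromosome 1, from 50 Mb on, had 9 of 855 genes called on that measure (1.05%), and the other chromosomes had 1.40%. Changes among the members were mostly modest. The median absolute averaged log2 fold change was 0.06 in members and 0.04 over all genes tested, and the median signed value was 0.00 in members and 0.00 over all genes. Calls were thus about evenly higher and lower, and the median member did not shift.

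**Figure D1:**
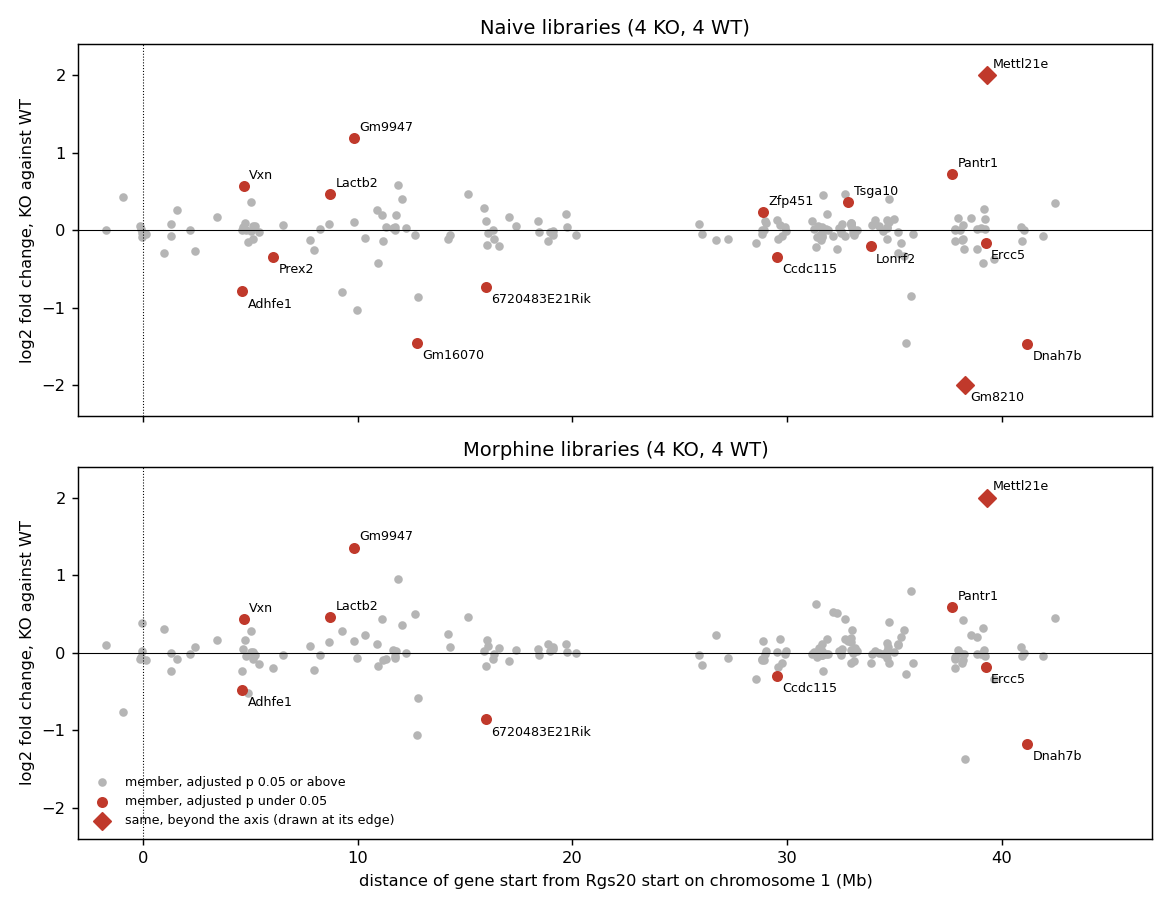
Log2 fold change of KO against WT for the 176 tested members, against the distance of each gene start from the Rgs20 start in Mb, in naive libraries (top) and morphine libraries (bottom). Red points were called and grey points were not, and diamonds mark called values past the axis (Mettl21e, 3.54 and 3.44, and Gm8210, -8.29 in naive libraries). The 10 members called with morphine stand on the same side of 0 in naive libraries, and the nearest member called in either treatment starts 4.64 Mb from Rgs20.

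The levels were also compared without a model. The CPM of the 4 KO libraries lay wholly above or wholly below those of the 4 WT libraries for 34 members in naive animals (19.3%, against 8.13% of all genes tested) and for 26 with morphine (14.8%, against 5.27%). For 13 members all 8 KO libraries lay on one side of all 8 WT libraries (7.39%, against 0.48%). Those 13 were Sntg1, Adhfe1, Vxn, Lactb2, Gm9947, 6720483E21Rik, Zfp451, Ccdc115, Pantr1, Tgfbrap1, Ercc5, Mettl21e and Dnah7b.

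The largest well-measured difference was in Dnah7b, at chr1:46066315-46373546, which encodes a heavy chain of the inner dynein arm, a motor of motile cilia. It was lower in KO libraries in both treatments. It had 12.4, 10.5, 12.4 and 12.2 CPM in KO naive libraries, against 30.8, 36.0, 33.2 and 31.2 CPM in WT naive libraries. In morphine animals it had 12.5, 12.2, 13.3 and 12.7 CPM in KO libraries, against 30.6, 27.6, 31.4 and 24.5 CPM in WT libraries. All 8 KO libraries lay far below all 8 WT libraries. The level in KO was 0.362 of WT in naive animals (log2 fold change -1.47 ± 0.08 SE, adjusted p = 2.47e-09) and 0.443 of WT with morphine (log2 fold change -1.17 ± 0.08 SE, adjusted p = 2.03e-07), and no alternative setting or left-out library ended either call.

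Dnah7b belongs to a cluster of near-identical copies on this chromosome, so how reads are shared among copies bears on its count. Of the 50-base words in its transcripts, 30.05% also occur in transcripts of other genes, mostly Dnah7c (23.6%). Over the longest open reading frame, 12075 aligned bases, it is 97.3% identical to Dnah7c (329 differences) and 97.0% identical to Dnah7a (367 differences). The stretch below, from base 2401 to 2550 of the Dnah7b frame and 2269 to 2418 of the copies (GENCODE M21 transcripts), shows how little separates them, with bases that differ from Dnah7b in capitals.
Dnah7b: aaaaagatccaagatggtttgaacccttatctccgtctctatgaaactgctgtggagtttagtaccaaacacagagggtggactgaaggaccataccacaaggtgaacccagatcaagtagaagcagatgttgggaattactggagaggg
Dnah7c: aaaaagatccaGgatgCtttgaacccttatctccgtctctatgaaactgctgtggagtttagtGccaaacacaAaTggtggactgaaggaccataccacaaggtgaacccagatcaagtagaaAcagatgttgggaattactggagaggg
Dnah7a: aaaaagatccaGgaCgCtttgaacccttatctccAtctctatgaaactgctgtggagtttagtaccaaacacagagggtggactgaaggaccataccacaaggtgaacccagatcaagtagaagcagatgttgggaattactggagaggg
In these 150 bases Dnah7c differs from Dnah7b at 6 positions and Dnah7a at 4. Dnah7a, which lies past 50 Mb and is no member, had a log2 fold change of -0.42 ± 0.15 in naive (adjusted p = 0.235) and -0.22 ± 0.16 in morphine libraries (adjusted p = 0.697), lower in KO like Dnah7b but not called. Counts of Dnah7c were not analysed here. Whether reads of one copy were counted to another was not tested.

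**Figure D2:**
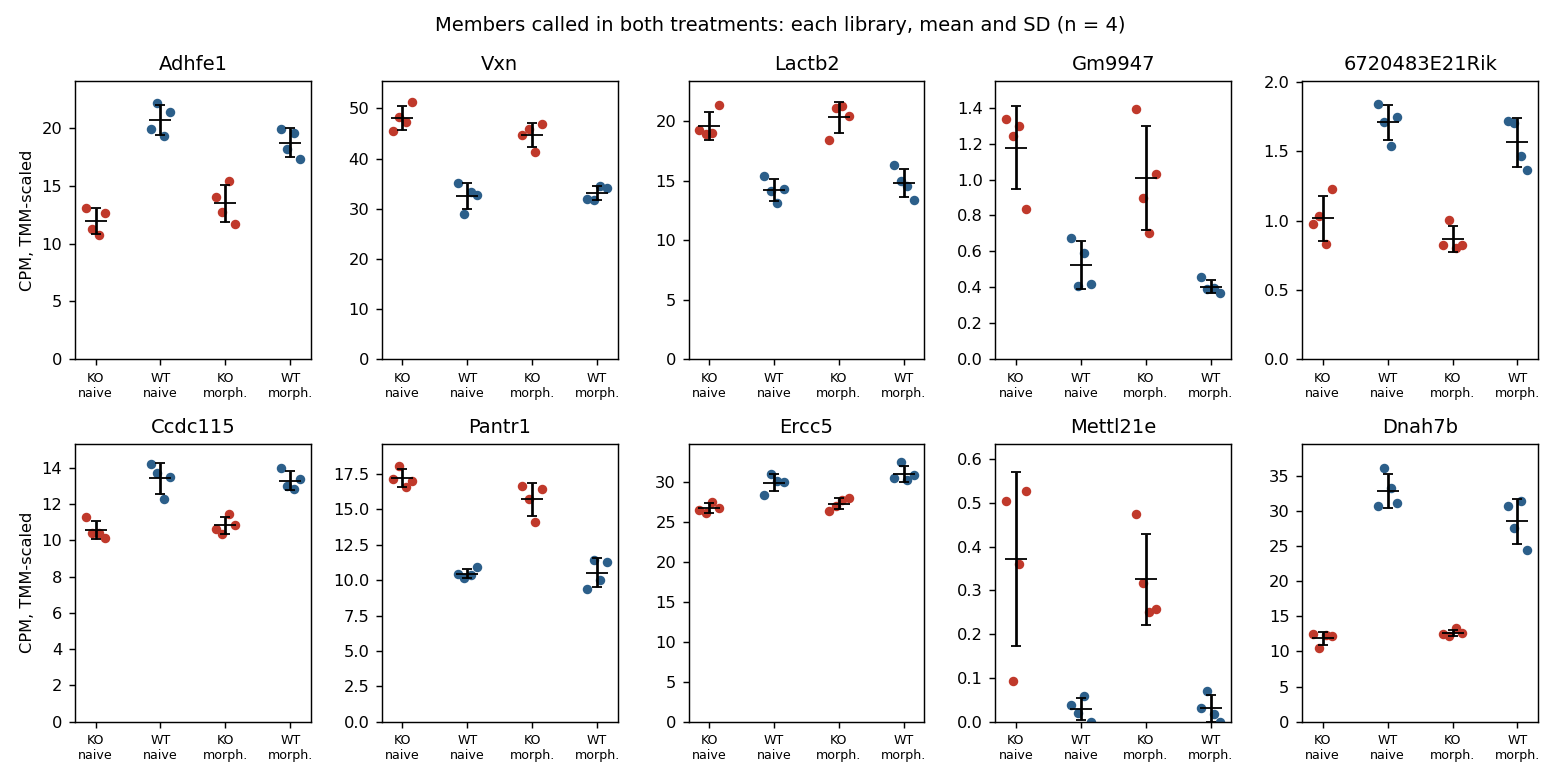
CPM (scaled by TMM, the trimmed mean of M values) of the 10 members called in both treatments, 1 panel per gene in order along the chromosome, for KO naive, WT naive, KO morphine and WT morphine libraries. Points are libraries, and bars give the mean and SD (n = 4). In each panel the KO libraries lie on one side of the WT libraries in both treatments, as in Dnah7b, where KO libraries hold 10.5 to 13.3 CPM and WT libraries 24.5 to 36.0 CPM.

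Members were also counted by role on the averaged measure, by which 13.6% of the tested members were called. Among the mitochondrial and metabolic members, 1 was higher and 1 lower in KO libraries of 18 tested, and both were called in each treatment. Adhfe1, at chr1:9547948-9580673, encodes a mitochondrial transhydrogenase that oxidises gamma-hydroxybutyrate. It had 13.1, 11.2, 10.7 and 12.7 CPM in KO naive libraries, against 19.9, 22.1, 19.3 and 21.4 CPM in WT naive libraries, and with morphine 14.0, 12.7, 15.4 and 11.7 CPM in KO, against 19.9, 18.2, 19.6 and 17.3 CPM in WT libraries. Every KO library was below every WT library, with a log2 fold change of -0.79 ± 0.08 (SE, adjusted p = 2.74e-05) in naive and -0.48 ± 0.08 (SE, adjusted p = 0.00961) in morphine animals. Rrs1, a ribosome biogenesis factor that ends 493 bases before Adhfe1 starts, was not called between genotypes (log2 fold change 0.01 ± 0.07 SE, adjusted p = 0.984 in naive and -0.24 ± 0.08 SE, adjusted p = 0.243 in morphine libraries).

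Lactb2, at chr1:13623330-13660546, encodes a mitochondrial endoribonuclease and moved the other way. It had 19.3, 18.9, 19.0 and 21.4 CPM in KO naive libraries, against 15.4, 14.1, 13.1 and 14.3 CPM in WT naive libraries. Its morphine libraries held 18.4, 21.1, 21.3 and 20.5 CPM in KO and 16.4, 14.9, 14.5 and 13.4 CPM in WT libraries. The groups did not overlap, and the log2 fold change, near alike in both treatments, was 0.47 ± 0.07 (SE, adjusted p = 0.00134) in naive and 0.46 ± 0.07 (SE, adjusted p = 0.0031) in morphine animals.

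Vxn (vexin), at chr1:9601199-9627143, starts 20526 bases past the end of Adhfe1 and encodes a protein known from frog embryos to promote neuronal differentiation. It had 45.4, 48.3, 47.2 and 51.2 CPM in KO naive libraries, against 35.2, 28.9, 33.4 and 32.7 CPM in WT naive libraries. With morphine there were 44.6, 45.99, 41.3 and 46.8 CPM in KO libraries, against 32.0, 31.7, 34.5 and 34.0 CPM in WT libraries. It was higher in every KO library than in any WT library (log2 fold change 0.56 ± 0.06 SE, adjusted p = 1.64e-05 in naive, 0.44 ± 0.06 SE, adjusted p = 0.000631 in morphine animals), so these neighbours differed in opposite directions. Both overlap 2610203C22Rik on the opposite strand, which was not called (averaged log2 fold change 0.05 ± 0.14 SE, adjusted p = 0.992). The library kit does not mark strand, so reads of overlapping antisense pairs cannot be told apart here, and 12.6% of the 50-base words of Vxn and 1.58% of those of Adhfe1 are shared with that transcript.

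Of the 16 tested members in the list of synaptic and neuronal signalling genes, 2 were higher and 1 lower in KO on the averaged measure. Prex2, an exchange factor for Rac, was lower in naive KO libraries, with 71.7, 62.7, 68.3 and 71.7 CPM, against 80.5, 92.6, 87.7 and 87.4 CPM in WT naive libraries. Those groups did not overlap (log2 fold change -0.34 ± 0.07 SE, adjusted p = 0.03), while with morphine it was not called (log2 fold change -0.20 ± 0.07 SE, adjusted p = 0.337). Its naive call was lost without any 1 of the 4 KO naive libraries (adjusted p 0.0537 to 0.109) and without WT naive library 2, 3 or 4 (0.108, 0.0972 and 0.0525). It was also lost with no filter on low counts (0.0655) and without KO morphine library 3 and WT naive library 2 together (0.0945). A fit with the replicate number as a block ended it too (0.0588).

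Sntg1, a syntrophin of neurons that links signalling proteins to the dystrophin complex, and Jph1, a junctophilin that ties the endoplasmic reticulum to the cell membrane, were called on the averaged measure alone. Sntg1 had an averaged log2 fold change of 0.16 ± 0.03 (SE, adjusted p = 0.00394), with 33.4 to 38.3 CPM in the 8 KO libraries, against 30.4 to 33.2 CPM in the 8 WT libraries, a small difference with no overlap. Jph1 had one of 0.38 ± 0.09 (SE, adjusted p = 0.0322) and the groups overlapped. Its call was lost without any 1 of 7 libraries, with an adjusted p of 0.0528 (WT morphine 2) to 0.0815 (KO naive 2) and between those without KO naive 3, WT morphine 1, WT morphine 4, KO morphine 1 or KO morphine 4. The Jph1 call was also lost with limma-voom (0.0507), the serotonin marker score as a covariate (0.0505) and the replicate number as a block (0.0618). Nck2, an adaptor joining receptors to actin, was also called only on the averaged measure (log2 fold change 0.19 ± 0.04 SE, adjusted p = 0.015) and was named after its value was seen.

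Among the called transcripts that encode no protein, Pantr1 alone stayed called in both treatments under every alternative setting and without any 1 library. Pantr1 is a long noncoding RNA of the nervous system at chr1:42590782-42694842, transcribed away from the transcription factor gene Pou3f3, whose start lies 926 bases from it. Pantr1 had 17.1, 18.1, 16.6 and 17.0 CPM in KO naive libraries, against 10.4, 10.1, 10.4 and 10.9 CPM in WT naive libraries. In morphine libraries its level was 16.7, 15.7, 14.1 and 16.4 CPM in KO, against 9.41, 11.5, 9.98 and 11.3 CPM in WT libraries. KO libraries were 1.65-fold higher in naive (log2 fold change 0.72 ± 0.07 SE, adjusted p = 8.93e-06) and 1.5-fold higher in morphine animals (log2 fold change 0.58 ± 0.07 SE, adjusted p = 0.000173), with no overlap. Pou3f3 was not called between genotypes, with a log2 fold change of 0.01 ± 0.04 (SE, adjusted p = 0.973) in naive and -0.05 ± 0.04 (SE, adjusted p = 0.759) in morphine libraries. None of the 50-base words of Pantr1 occurs in transcripts of another gene.

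6720483E21Rik, a long intergenic RNA at chr1:20888650-20890473, was lower in KO libraries. It had 0.974, 1.03, 0.828 and 1.23 CPM in KO naive libraries, against 1.84, 1.71, 1.54 and 1.75 CPM in WT naive libraries, and with morphine 0.822, 1.00, 0.805 and 0.825 CPM in KO, against 1.72, 1.71, 1.47 and 1.36 CPM in WT libraries. The groups did not overlap (log2 fold change -0.73 ± 0.14 SE, adjusted p = 0.016 in naive, -0.86 ± 0.15 SE, adjusted p = 0.0114 in morphine animals). The naive call was lost without KO naive library 1, 2 or 3 (adjusted p = 0.0604, 0.0576 and 0.0581) and the morphine call without KO morphine library 4 (0.0571) or in a fit of the morphine libraries alone (0.0505). The gene on its other side, Paqr8, is read the opposite way from a start 133 bases away and was not called between genotypes (log2 fold change -0.03 ± 0.04 SE, adjusted p = 0.915 averaged).

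Gm9947, an antisense transcript at chr1:14752937-14776931, was higher in KO libraries. It had 1.34, 1.24, 1.30 and 0.833 CPM in KO naive libraries, against 0.676, 0.408, 0.592 and 0.418 CPM in WT naive libraries, and with morphine 1.39, 0.899, 0.704 and 1.03 CPM in KO, against 0.454, 0.391, 0.395 and 0.370 CPM in WT libraries. Again the groups stood apart (log2 fold change 1.19 ± 0.22 SE, adjusted p = 0.0128 in naive, 1.35 ± 0.25 SE, adjusted p = 0.0126 in morphine animals), and single libraries ended each call by a narrow margin (adjusted p = 0.0525 without WT naive library 2 and 0.0518 without KO morphine library 1). It overlaps Msc, a transcription factor gene on the other strand, by 2647 bases and shares 14.0% of its words with it. Msc was not called (log2 fold change 0.12 ± 0.12 SE, adjusted p = 0.84 averaged).

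Of 17 tested members in the transcription and chromatin list, 2 were higher in KO on the averaged measure and none was lower. Zfp451, a zinc finger protein with SUMO ligase activity, had 88.0, 82.1, 87.0 and 83.3 CPM in KO naive libraries, against 75.3, 75.3, 72.0 and 68.1 CPM in WT naive libraries, and was called there (log2 fold change 0.23 ± 0.04 SE, adjusted p = 0.00296). With morphine it had 85.8, 88.8, 83.4 and 86.3 CPM in KO, against 77.6, 77.7, 78.3 and 76.5 CPM in WT libraries, a difference that had no overlap but was not called (log2 fold change 0.15 ± 0.04 SE, adjusted p = 0.0725). Terf1, which binds telomere repeats, was higher on the averaged measure (log2 fold change 0.19 ± 0.04 SE, adjusted p = 0.0352). That call was lost without any 1 of 12 libraries, namely KO naive 1 to 4 (adjusted p 0.0625 to 0.079), WT naive 1, 3 and 4 (0.0536 to 0.0722), KO morphine 1 and 2 (0.0687 and 0.0808) and WT morphine 1, 3 and 4 (0.0515 to 0.0711). No filter on low counts (0.0531) and the serotonin covariate (0.0504) ended it too.

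Among genes of membrane traffic, 23 of which were tested, Tgfbrap1, a tethering subunit of early endosomes, was lower in KO on the averaged measure (log2 fold change -0.13 ± 0.02 SE, adjusted p = 0.00666). It had 55.2 to 61.2 CPM in the 8 KO libraries, against 62.1 to 67.1 CPM in the 8 WT libraries, so the groups did not overlap. Ccdc115, at chr1:34436670-34439672, an assembly factor of the proton pump of acid organelles, is outside that list. It was called lower in both treatments. It had 11.3, 10.4, 10.4 and 10.2 CPM in KO naive libraries, against 14.2, 13.7, 12.3 and 13.5 CPM in WT naive libraries, and with morphine 10.6, 10.4, 11.5 and 10.9 CPM in KO, against 14.0, 13.0, 12.8 and 13.4 CPM in WT libraries. Every KO library was below every WT library (log2 fold change -0.34 ± 0.06 SE, adjusted p = 0.00835 in naive, -0.29 ± 0.06 SE, adjusted p = 0.0299 in morphine animals). The morphine call was lost without KO morphine library 1, 2 or 4 (adjusted p = 0.0896, 0.119 and 0.0853) and without WT morphine library 1, 2 or 4 (0.106, 0.077 and 0.0785). It was lost too with limma-voom (0.0508), the replicate number as a block (0.0555) and in a fit of the morphine libraries alone (0.0689). Of its 50-base words, 15.5% also occur in other genes, mostly Gm7774.

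Of 13 tested members that handle RNA or copy DNA, 1 was lower, the primase subunit Prim2 (log2 fold change -0.25 ± 0.06 SE, adjusted p = 0.046 averaged). That call was lost without any 1 of 13 libraries (all but KO naive 3, WT morphine 4 and KO morphine 1, adjusted p 0.0538 to 0.11). It was also lost in 5 other fits (0.0501 to 0.101). Ercc5, at chr1:44147744-44181260, is outside that list. It encodes the XPG endonuclease of nucleotide excision repair and was slightly lower in both treatments. It had 26.5, 26.1, 27.5 and 26.8 CPM in KO naive libraries, against 28.4, 31.0, 30.2 and 30.03 CPM in WT naive libraries, and with morphine 26.4, 27.1, 27.7 and 27.99 CPM in KO, against 30.5, 32.5, 30.2 and 30.8 CPM in WT libraries. All KO values were under all WT values, yet the difference was small (log2 fold change -0.16 ± 0.04 SE, adjusted p = 0.043 in naive, -0.18 ± 0.04 SE, adjusted p = 0.0318 in morphine animals). Its naive call was lost without any 1 of 12 libraries (KO naive 1 to 4, 0.0714 to 0.169, WT naive 2 to 4, 0.0613 to 0.153, and by a narrow margin KO morphine 2 and 3 and WT morphine 1, 3 and 4, 0.0501 to 0.058). The morphine call was lost without any 1 of 10 (KO morphine 1 to 4, 0.0548 to 0.117, WT morphine 1, 2 and 4, 0.0658 to 0.149, and KO naive 1 and 4 and WT naive 3, 0.0505 to 0.0557). Other fits ended the naive call with no filter, only the naive libraries or without KO morphine 3 and WT naive 2 together (0.0779 to 0.148), and the morphine call with limma-voom, the serotonin covariate or only the morphine libraries (0.052 to 0.146). The replicate number as a block ended both calls (0.0798 in naive and 0.0605 in morphine animals).

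The promoters of 3 of the 10 members called in both treatments are in the RefSeq table (GRCm38.p6), 250 bases before to 50 after the start. They are shown for what the starts of genes that differ between the libraries hold. Capitals mark matches on either strand to the letters of the CCAAT box, to GGGCGG and to TATAAA, which do not overlap one another here.
Ccdc115, chr1:34439623-34439922, minus strand: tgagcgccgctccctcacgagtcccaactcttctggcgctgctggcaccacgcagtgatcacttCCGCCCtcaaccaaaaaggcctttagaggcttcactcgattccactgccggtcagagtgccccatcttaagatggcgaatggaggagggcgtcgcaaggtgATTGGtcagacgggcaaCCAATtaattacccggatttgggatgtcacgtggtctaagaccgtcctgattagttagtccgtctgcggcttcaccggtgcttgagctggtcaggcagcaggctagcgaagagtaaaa
Ercc5, chr1:44147494-44147793, plus strand: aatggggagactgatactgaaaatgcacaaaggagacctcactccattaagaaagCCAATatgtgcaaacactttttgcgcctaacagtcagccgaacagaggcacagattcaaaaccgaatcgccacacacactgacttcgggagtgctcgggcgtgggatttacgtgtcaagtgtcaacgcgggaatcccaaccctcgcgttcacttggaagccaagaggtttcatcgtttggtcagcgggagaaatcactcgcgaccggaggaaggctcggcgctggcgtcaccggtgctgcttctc
Dnah7b, chr1:46066603-46066902, plus strand: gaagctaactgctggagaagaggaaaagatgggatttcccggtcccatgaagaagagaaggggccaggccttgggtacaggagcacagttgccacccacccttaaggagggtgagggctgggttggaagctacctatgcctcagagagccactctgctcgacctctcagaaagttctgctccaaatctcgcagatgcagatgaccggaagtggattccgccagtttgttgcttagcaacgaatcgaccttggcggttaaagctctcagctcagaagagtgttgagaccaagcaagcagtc
Ccdc115 holds CCAAT on both strands and GGGCGG on the strand opposite the gene, Ercc5 holds 1 CCAAT, and Dnah7b holds none of these letters in this window. Over the 32851 promoters of the table, 37.4% hold CCAAT, 35.7% GGGCGG and 13.6% TATAAA. The CG count was 19 in Ccdc115, 21 in Ercc5 and 8 in Dnah7b, against a median of 7. In that order, 73.5%, 76.9% and 54.2% of the promoters held as many or fewer. The RefSeq start of Dnah7b lies inside the GENCODE gene, past its first base. Of the 178 members 93 have an entry.

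Tsga10, a protein of the sperm tail and centrosome, stood with Dnah7b in the list of cytoskeleton, cilium and adhesion genes, of which 2 of 10 tested were higher and 2 lower in KO on the averaged measure. It had 27.0, 24.9, 24.8 and 27.5 CPM in KO naive libraries, against 21.5, 21.4, 18.8 and 19.6 CPM in WT naive libraries, with no overlap (log2 fold change 0.36 ± 0.06 SE, adjusted p = 0.00587). With morphine it had 24.5, 22.5, 20.3 and 22.5 CPM in KO and 21.1, 18.9, 20.5 and 20.8 CPM in WT libraries, and these overlapped (log2 fold change 0.15 ± 0.06 SE, adjusted p = 0.445). Gulp1, an adaptor for engulfing dying cells, was lower on the averaged measure (log2 fold change -0.36 ± 0.07 SE, adjusted p = 0.00712).

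Lonrf2, a ubiquitin ligase of neurons, was lower in naive KO libraries. It had 332, 322, 358 and 325 CPM in KO naive libraries, against 385, 377, 399 and 384 CPM in WT naive libraries. Those groups did not overlap and the difference was called (log2 fold change -0.21 ± 0.04 SE, adjusted p = 0.00891), while with morphine it was not (log2 fold change -0.13 ± 0.04 SE, adjusted p = 0.153).

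Mettl21e, a methyltransferase gene of skeletal muscle in mice, had few counts in any library. The 4 KO naive libraries held 28, 4, 10 and 24 counts, against 1, 1, 3 and 0 in the WT naive libraries, and with morphine there were 15, 6, 5 and 10 in KO, against 1, 2, 1 and 0 in WT libraries. Both treatments were thus higher in KO with no overlap in CPM, at 13.0 times the WT rate in naive (66 against 5 counts, exact 95% interval 5.32 to 41.5) and 12.1 times with morphine (36 against 4, 4.35 to 46.96), where intervals cover counting error only. The fitted calls had an adjusted p of 0.00956 in naive and 0.0311 in morphine animals. The morphine call was lost without KO morphine 1, 2 or 4 (0.11, 0.0792 and 0.0635) or WT morphine 1, 3 or 4 (0.0833, 0.115 and 0.0939) and with limma-voom (0.0541). The replicate number as a block ended that call too (0.058). Mettl21e lies 22810 bases past the end of Ercc5.

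Gm8210, a processed pseudogene inside Fhl2, was either present or nearly absent. It had 0.0180, 0, 0 and 0.0219 CPM in KO naive libraries, against 1.95, 6.49, 4.88 and 5.14 CPM in WT naive libraries. That is 2 against 842 counts, a ratio of 0.00235 (exact 95% interval 0.000284 to 0.0085). The interval covers counting error only and not the spread between libraries. With morphine Gm8210 had 3.10, 0, 0.0503 and 0.0773 CPM in KO, against 2.92, 0, 3.14 and 3.01 CPM in WT libraries. KO morphine library 1 thus resembled WT libraries and WT morphine library 2 resembled KO libraries at this gene. Both libraries kept to their labels at Dnah7b, with 12.5 CPM in that KO and 27.6 CPM in that WT library. All 434 of its 50-base words occur in transcripts of other genes as well, so its count is uncertain. It was called in naive libraries (adjusted p = 0.047) and not with morphine (adjusted p = 0.703). Its naive call was lost without any 1 of 10 libraries, namely KO naive 1 to 4 (0.122 to 0.169), WT naive 2 to 4 (0.0604 to 0.109) and WT morphine 1, 3 and 4 (0.0611 to 0.0641). No filter, limma-voom and leaving out KO morphine 3 and WT naive 2 together ended it too (0.0665 to 0.104). So did the replicate number as a block (0.102).

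Gm16070, an antisense transcript, and Crispld1, a secreted cysteine-rich protein gene, overlap by 602 bases on opposite strands and were both lower. Gm16070 had 0.217, 0.187, 0.396 and 0.329 CPM in KO naive libraries, against 0.526, 0.951, 0.889 and 0.566 CPM in WT naive libraries, and was called there (log2 fold change -1.46 ± 0.30 SE, adjusted p = 0.024). That call was lost without KO naive 1, 2 or 4 (0.0877, 0.102 and 0.0535) or WT naive 2 or 3 (0.084 and 0.0927), in a fit of the naive libraries alone (0.0504) and without KO morphine 3 and WT naive 2 together (0.0762). Crispld1 was called on the averaged measure (log2 fold change -0.72 ± 0.16 SE, adjusted p = 0.0318), a call lost without any 1 of 9 libraries, namely KO naive 1, 2 and 4 (0.0588 to 0.0754), KO morphine 1, 2 and 4 (0.0599 to 0.0685) and WT morphine 1, 3 and 4 (0.0543 to 0.0703). They share 11.0% of the 50-base words of Crispld1.

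The list of extracellular and secreted proteins held 8 tested members, of which Crispld1 was called. None of 6 tested interleukin receptor and immune members was called between genotypes. In that list Il1rl1, the receptor of interleukin 33, averaged 0.114 ± 0.0792 CPM in KO naive libraries and 0.355 ± 0.0614 CPM in WT naive libraries (SD, n = 4 each) and was not called, with a log2 fold change of -1.46 ± 0.38 (SE, adjusted p = 0.078). Il1rl1 had just 1 to 18 counts a library. With morphine these were 5, 1, 5 and 6 in KO and 5, 7, 12 and 4 in WT libraries, which overlap. Medians of the averaged log2 fold change lay between -0.02 and 0.07 in each of the 8 lists, against 0.00 over all genes tested. The share called on that measure was 18.8% in the synaptic list, 11.8% in transcription and chromatin, 11.1% in mitochondria and metabolism, 12.5% in secreted proteins, 7.69% in RNA and DNA copying and 4.35% in membrane traffic, against 13.6% of all tested members and 1.53% of all genes. In the cytoskeleton, cilium and adhesion list 4 of 10 were called. The 65 tested members in no list held 10 of the 24 called on the averaged measure. By class, 19 of 147 protein-coding members were called (12.9%) and 5 of the 29 others (17.2%).

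The members closest to Rgs20 were not among the called ones. Of the 11 that start within 2 Mb, none was called between genotypes in either treatment or on the averaged measure. On that measure 13.6% of all tested members and 1.53% of all genes were called. At either share 11 members would hold few calls. Atp6v1h, a subunit of the vacuolar proton pump, overlaps Rgs20 by 268 bases on the opposite strand, and had a log2 fold change of -0.05 ± 0.04 (SE, adjusted p = 0.682) in naive and -0.09 ± 0.04 (SE, adjusted p = 0.523) in morphine libraries. On the other side of Rgs20 the elongation factor gene Tcea1 had -0.03 ± 0.04 on the averaged measure, the thioesterase gene Lypla1 -0.02 ± 0.05 and the mitochondrial ribosomal protein gene Mrpl15 -0.01 ± 0.04. The pseudogene Gm6104, inside Tcea1, had 0.17 ± 0.17. Farther out, the scramblase-family gene Xkr4 had 0.05 ± 0.04, Rp1, a microtubule-associated protein known from photoreceptors, -0.17 ± 0.28, and Npbwr1, the receptor of neuropeptides B and W, 0.01 ± 0.13. The autophagy gene Rb1cc1 had 0.04 ± 0.02, its antisense transcript 4732440D04Rik -0.15 ± 0.13, and St18, a zinc finger transcription factor, 0.09 ± 0.07. These are log2 fold changes ± SE, and the error was 0.13 or more for Rp1, Gm6104, Npbwr1 and 4732440D04Rik and at most 0.07 for the other 7.

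The nearest member called on the averaged measure was Sntg1, 3.45 Mb away, and the nearest called in both treatments was Adhfe1, at 4.64 Mb. The 13 members nearer than Sntg1 had absolute averaged log2 fold changes up to 0.17, with a median of 0.05. The farthest called member was Dnah7b at 41.2 Mb, close to the end of the stretch, whose last member Gm4852 starts at 47.4 Mb on the chromosome. Ranked by size, the differences of all members, most of them not called, showed no clear relation with distance inside this stretch. Their median absolute averaged log2 fold change, 0.06, was near the median SE of 0.05, so such a ranking could hardly show a relation. Over the 176 members Spearman's rho between distance and absolute log2 fold change was 0.03 in naive, -0.05 in morphine and -0.02 on the averaged measure, as a description across genes that share libraries.

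Called members were spread along the stretch. On the averaged measure 14.3% of 21 members within 5 Mb were called, 17.6% of 17 from 5 to 10 Mb, 13.5% of 37 from 10 to 20 Mb, 15.8% of 19 from 20 to 30 Mb and 12.2% of 82 from 30 to 45 Mb. A gap lay between 6720483E21Rik and Prim2, where none of 21 members was called and the largest absolute averaged log2 fold change was 0.16. It was picked out after the calls were seen, and at the 13.6% of all tested members 21 would hold few calls. Its far edge, the call of Prim2, was lost without any 1 of 13 libraries. Bins of fewer than 20 genes rest on few calls. Past 50 Mb the share was 0.625% of 160 genes up to 75 Mb and 3.59% of 167 from 75 to 100 Mb, and it was 0.0% of 44 genes from 100 to 125 Mb and 0.0% of 140 from 125 to 150 Mb. The last stretches had 0.485% of 206 and 0.725% of 138. In both treatments with the same sign, 1 of the 855 genes past 50 Mb was called (0.117%), against 10 of the 176 members.

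**Figure D3:**
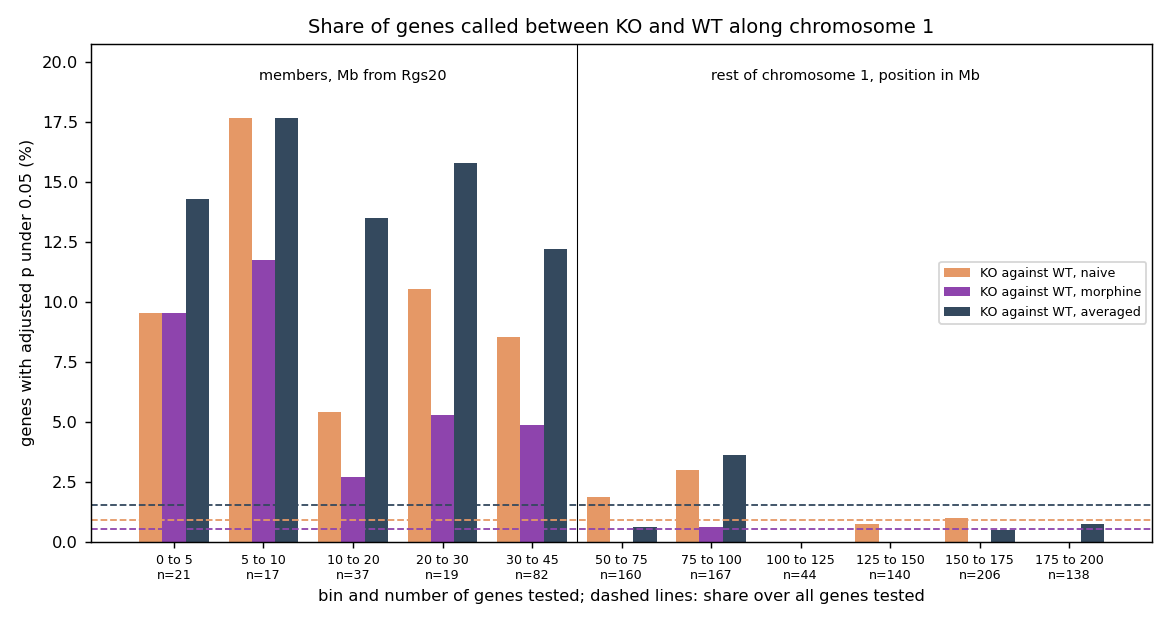
Share of genes with adjusted p under 0.05 between KO and WT, in percent, for bins of distance from Rgs20 (members, left) and for the rest of chromosome 1 by position (right), in naive, morphine and averaged comparisons. Dashed lines give the share over all genes tested, 0.906% naive, 0.53% morphine and 1.53% averaged. Averaged shares lie between 12.2% and 17.6% in the 5 bins of members and between 0.0% and 3.59% in the bins past 50 Mb.

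At the limits of the choice, the first gene past 50 Mb with the counts, Tmeff2, had log2 fold changes of 0.07 ± 0.05 in naive and -0.03 ± 0.05 in morphine libraries, and the last member before it, Gm4852, had 0.34 ± 0.26 in naive and 0.45 ± 0.28 in morphine libraries. The members with 10 counts in just 4 libraries were Gm15825 and 4930556I23Rik, and Gm5415 and Nms reached that in 3 libraries and are no members. Gm15825 and Gm7094 did not enter the test. Gm15825 had 0.108, 0.141, 0.0720 and 0.154 CPM in KO naive libraries, against 0.188, 0.447, 0.434 and 0.271 CPM in WT naive libraries, and Gm7094 had 0.253, 0.234, 0.180 and 0.263 CPM in KO, against 0.113, 0.117, 0.237 and 0.123 CPM in WT naive libraries. The Gm15825 values did not overlap and those of Gm7094 did.

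The naive and the morphine genotype comparisons were also set side by side over all members. Of the 176 members 104 had the same sign in both (59.1%), against 46.1% of all genes tested. Pearson's r between the 2 sets of log2 fold changes was 0.62 over the members and 0.15 over all genes, and Spearman's rho was 0.34 and -0.07, both as descriptions across genes. Gm8210 (-8.29 in naive and -1.37 in morphine libraries) and Mettl21e (3.54 and 3.44) lie far from the other members and weigh most on Pearson's r. That r was not computed without them. Of the 16 members called in naive libraries, 6 were not called with morphine, and no member was called with morphine alone. Those 6 are Prex2, Gm16070, Zfp451, Tsga10, Lonrf2 and Gm8210, and all 6 had the same sign with morphine. A call in one treatment and not the other is no difference between treatments, and the test of that difference follows.

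**Figure D4:**
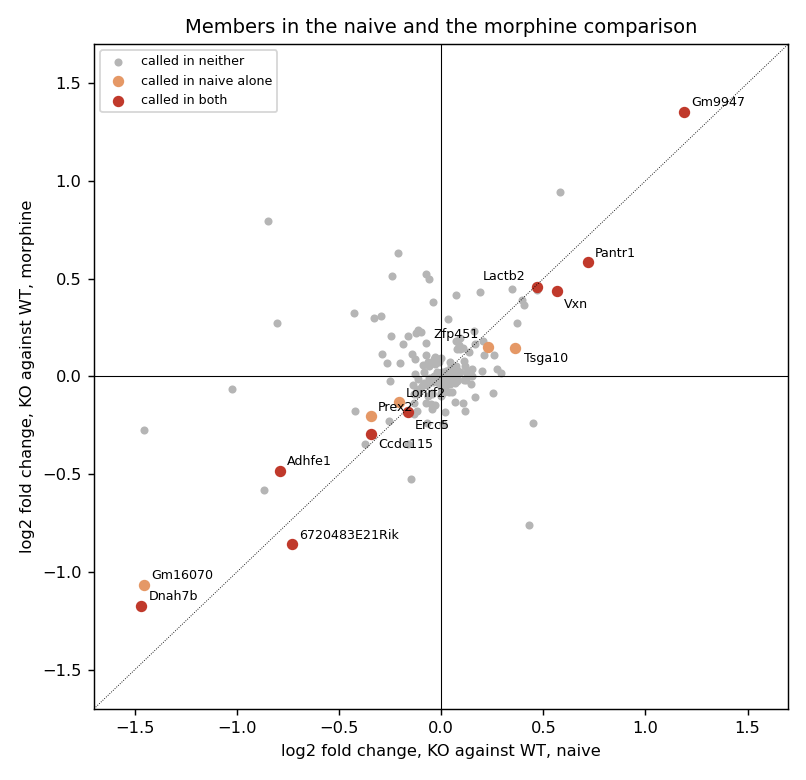
Log2 fold change of KO against WT in naive libraries (horizontal) and morphine libraries (vertical) for the members, 1 point each, with members called in both treatments in red and in naive alone in orange. The dotted line marks equal values, and Mettl21e (3.54 and 3.44) and Gm8210 (-8.29 and -1.37) lie outside the axes. All called members lie in the lower left or the upper right of the plot.

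No member passed the test of whether the genotype difference changed with morphine, and no gene of the 18111 did (0.0%) by edgeR's quasi-likelihood test. DESeq2 called no member either, and 0.591% of all genes. At an unadjusted p under 0.05 there were 23 members (13.1%), against 12.1% of all genes. The smallest p-values belonged to Paqr8, a membrane progestin receptor, and Bivm, the gene just before Ercc5. Paqr8 had 242, 244, 271 and 232 CPM in KO and 287, 271, 284 and 278 CPM in WT morphine libraries, and 239, 249, 232 and 263 CPM in KO and 221, 211, 216 and 259 CPM in WT naive libraries. It was lower in KO with morphine without overlap and the naive groups overlapped, with a difference of log2 fold changes of -0.30 ± 0.08 (SE, adjusted p = 0.241). For Bivm that value was -0.20 ± 0.06 (SE, adjusted p = 0.27).

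Some members differed between morphine and naive libraries in each genotype, at shares not far from those of all genes tested. Against naive libraries 15 members were called in KO animals, 7 higher and 8 lower (8.52%, against 11.5% of all genes tested, 5.67% higher and 5.83% lower), and 11 in WT animals, 8 higher and 3 lower (6.25%, against 4.41% of all genes tested, 2.34% higher and 2.07% lower). These counts depended on single libraries. The KO count was 7 without KO morphine 2 or KO naive 2 and 6 without KO morphine 4 or KO naive 4. The WT count was 4 without WT morphine 2, WT naive 2 or WT naive 3, it was 5 without WT morphine 1 or KO naive 1, 2 or 4, and 7 without WT morphine 3 or 4.

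Sgk3, a kinase of endosomes related to the glucocorticoid-induced SGK1, rose with morphine in both genotypes. It had 19.6, 14.0, 19.8 and 11.5 CPM in KO morphine libraries, against 9.96, 10.1, 9.29 and 9.54 CPM in KO naive libraries. In WT animals it had 22.5, 25.8, 22.3 and 22.1 CPM with morphine, against 10.8, 10.2, 9.97 and 12.3 CPM in naive libraries. Neither genotype overlapped between treatments. The log2 fold change was 0.73 ± 0.14 (SE, adjusted p = 0.00402) in KO and 1.10 ± 0.13 (SE, adjusted p = 0.000188) in WT animals, and both calls held without any 1 library. Within morphine libraries KO lay below WT without overlap but was not called (log2 fold change -0.52 ± 0.13 SE, adjusted p = 0.124), and the difference between the log2 responses of KO and WT was -0.37 ± 0.19 (SE, adjusted p = 0.45).

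Slc40a1, which encodes the iron exporter ferroportin, fell with morphine in both genotypes. It had 7.53, 6.66, 8.10 and 7.499 CPM in KO morphine libraries, against 9.53, 10.4, 10.1 and 9.47 CPM in KO naive libraries, and 7.23, 7.504, 7.85 and 7.36 CPM in WT morphine libraries, against 10.7, 9.13, 9.68 and 10.1 CPM in WT naive libraries. All morphine libraries were below all naive ones (log2 fold change -0.40 ± 0.07 SE, adjusted p = 0.00184 in KO, -0.40 ± 0.07 SE, adjusted p = 0.00265 in WT animals). With the serotonin marker score as a covariate, a score that separated KO morphine from KO naive libraries, the KO call was lost (adjusted p = 0.0654). It lies between Ercc5 and Dnah7b and was not called between genotypes (log2 fold change -0.01 ± 0.05 SE, adjusted p = 0.999 averaged). Paqr8 rose with morphine in WT animals (log2 fold change 0.31 ± 0.06 SE, adjusted p = 0.00669) and had a log2 fold change of 0.01 ± 0.06 (SE, adjusted p = 0.952) in KO animals.

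**Figure D5:**
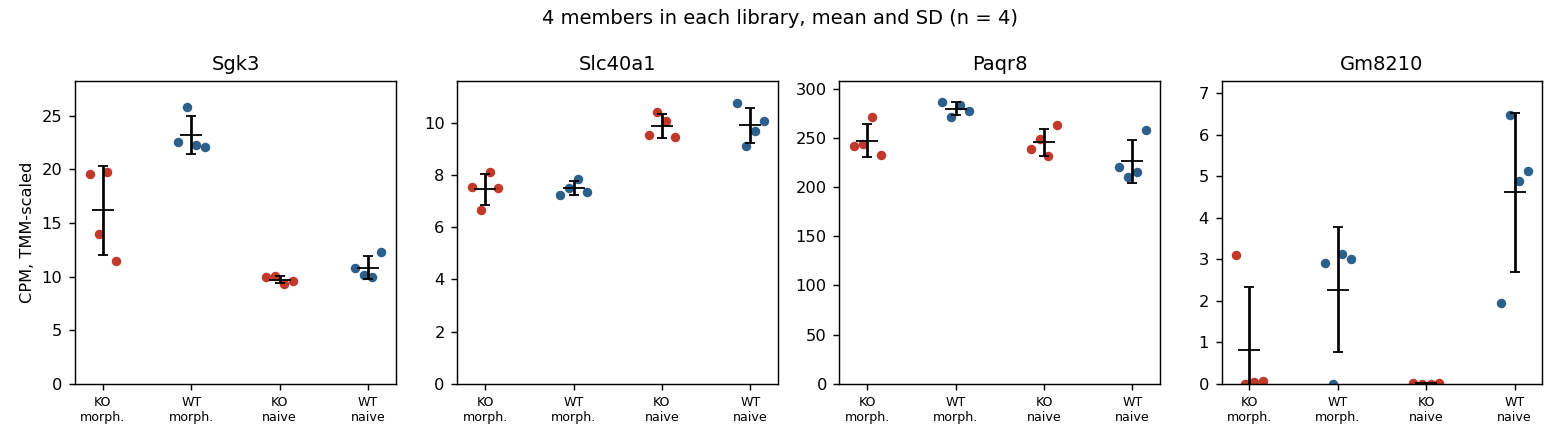
CPM (TMM-scaled) of Sgk3, Slc40a1, Paqr8 and Gm8210 in KO morphine, WT morphine, KO naive and WT naive libraries, with points for libraries and bars for the mean and SD (n = 4). Sgk3 is above its naive libraries and Slc40a1 below them in both genotypes, and Gm8210 is at 3.10 CPM in 1 KO morphine library and at 0 in 1 WT morphine library.

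Other members called for morphine changed less. In WT animals the phosducin-like chaperone gene Pdcl3 rose (log2 fold change 0.20 ± 0.04 SE, adjusted p = 0.00702), as did Stau2, which carries RNA into dendrites (log2 fold change 0.17 ± 0.04 SE, adjusted p = 0.0169), and Sema4c, a semaphorin gene, fell (log2 fold change -0.22 ± 0.06 SE, adjusted p = 0.0407). The Stau2 call was lost without WT naive 2 or 3 or WT morphine 2 (0.0582, 0.0626 and 0.0501). It was also lost in a fit of the WT libraries alone (0.0697), with the serotonin covariate (0.077) and without KO morphine 3 and WT naive 2 together (0.0548), and the fit of WT libraries alone ended the Pdcl3 call (0.051). The Sema4c call was lost without any 1 of 11 libraries. These were KO naive 1 to 4 (0.0508 to 0.0538), WT naive 1 to 3 (0.08 to 0.124) and WT morphine 1 to 4 (0.0501 to 0.112). The Sema4c call was also lost in 5 other fits (0.0548 to 0.168). In KO animals Rrs1 fell (log2 fold change -0.36 ± 0.08 SE, adjusted p = 0.0056), as did the kinase gene Map4k4 (log2 fold change -0.19 ± 0.04 SE, adjusted p = 0.006) and Pou3f3 (log2 fold change -0.19 ± 0.04 SE, adjusted p = 0.00859), while Lonrf2 rose (log2 fold change 0.15 ± 0.04 SE, adjusted p = 0.0143). The Lonrf2 call was lost without KO naive 2 or 4 or KO morphine 2 (0.0622, 0.0522 and 0.057). The serotonin covariate ended the calls of Rrs1 (adjusted p = 0.109) and Lonrf2 (0.104).

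Markers of cell types that a punch can hold were compared over the same libraries. Each of 8 lists was scored by the mean centred log2 CPM of its genes. The oligodendrocyte score was -0.40 to -0.08 in KO morphine libraries and -0.06 to 0.13 in WT morphine libraries, a difference of -0.29 (exact permutation test over libraries, two-sided, p = 0.0286). No lower p is possible with 4 libraries a group, and adjusted over the 16 scores by Benjamini-Hochberg it was 0.457 in this exact test. In naive libraries the score was 0.12 to 0.37 in KO and -0.44 to 0.29 in WT, so the difference had the other sign there. The meningeal fibroblast score was -0.58 to 1.99 in KO morphine and -0.60 to -0.28 in WT morphine libraries, and -0.41 to -0.25 in KO naive and -0.54 to 2.33 in WT naive libraries (exact permutation p = 0.229 with morphine and 0.943 in naive). All exact p-values but that of the oligodendrocytes with morphine were at least 0.171 and no marker of any list was called between genotypes, nor was any at 0 in a library. The part of cell composition in the members' genotype differences was not tested beyond a fit with the serotonin neuron score as a covariate, in which 18 members were called in naive, 9 in morphine and 21 on the averaged measure, where 1.17%, 0.536% and 1.53% of all genes were. The serotonin score was 0.05 to 1.32 in KO morphine libraries and -1.67 to -0.43 in KO naive libraries, and 0.25 to 0.61 in WT morphine and -0.90 to 0.56 in WT naive libraries. With that covariate 4 members were called for morphine in KO (1.9601% of all genes) and 4 in WT animals (1.90%).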

How the data were processed

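The deposited files hold HTSeq counts per gene for each of 16 libraries, on mm10 and analysed by the authors with limma, per the submitters' processing notes. Which aligner and gene annotation were used, and how strand was handled in counting, is not given in the sources used here. The 5 tally lines that name no gene held 38.2% to 40.6% of each library and were left out. Gene IDs were matched without version to GENCODE M21 (37607 of 38924), which gave names and positions.

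One edgeR 4.0.16 fit in R 4.3.3 (filterByExpr with a minimum count of 10, TMM scaling, robust quasi-likelihood, 1 coefficient per group, no covariate) covered all 16 libraries. P-values were adjusted over all 18111 genes tested, and a log2 fold change carries its standard error. The common biological coefficient of variation was 0.0835. The script was tested on simulated counts. DESeq2 1.42.0, limma-voom (limma 3.58.1), other filters and scalings, fits of the compared groups alone, a replicate block, a serotonin marker score and left-out libraries were tried as alternatives. No 2 libraries of the same group agreed within counting error. CPM are counts per 1000000 counts on genes, scaled by TMM.

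Named members are those called in both treatments, up to 8 called in one treatment alone, all within 2 Mb of Rgs20, the 2 smallest interaction p-values, up to 6 for morphine per genotype, and up to 3 per role list. Most of the role-list picks that were not called between genotypes are not given above. Il1rl1 was chosen from its list. The members, the role and marker lists and the left-out pair of libraries were chosen with earlier results of these data known. No library was left out of the fit that gives the values above, and the labels name no batch.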

Additional observations from a re-analysis of the deposited data

Results flagged for a closer look

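Of 224 groups of 4 libraries, over 56 genes, 11 (4.91%) held a library far from the other 3 by Dixon's test, and chance alone gives about 1 in 20. Of these, 5 concern members called between genotypes. Lactb2 was at 21.4 CPM in KO naive library 4, against 18.9 to 19.3 CPM in the other KO naive libraries. Dnah7b was at 10.5 CPM in KO naive library 2, against 12.2 to 12.4 CPM in the others, and 6720483E21Rik was at 1.00 CPM in KO morphine library 2, against 0.805 to 0.825 CPM in the others. Gm8210 was at 3.10 CPM in KO morphine library 1, against 0 to 0.0773 CPM in the others, and at 0 CPM in WT morphine library 2, against 2.92 to 3.14 CPM in the others.

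The other 6 concern members not called between genotypes. Sgk3 was at 25.8 CPM in WT morphine library 2, against 22.1 to 22.5 CPM in the others, Bivm at 28.2 CPM in KO morphine library 1, against 26.8 to 27.0 CPM, and Pkhd1 at 0.211 CPM in KO morphine library 2, against 0.402 to 0.412 CPM. Rb1cc1 was at 127 CPM in KO naive library 1, against 132 to 133 CPM in the others, Stau2 at 159 CPM in WT morphine library 4, against 164 to 165 CPM, and Gm6104 at 0.562 CPM in KO naive library 2, against 0.720 to 0.746 CPM.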

How the results depend on the processing

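Alternatives were run for the called comparisons of named members. None of these 1682 values changed sign, 1461 kept their call and 221 lost it. Adhfe1, Vxn, Lactb2, Pantr1 and Dnah7b were called in both treatments under every alternative and without any 1 library. Fits of only the groups compared called 6 members with morphine (0.483% of all genes), 6 in both treatments and 3 for morphine in WT animals (2.32%). The serotonin covariate left 4 called for morphine in KO (1.9601%) and 4 in WT animals (1.90%). Without WT naive 2 and KO morphine 3 together, 16 members were called between genotypes with morphine (1.30% of all genes), 23 for morphine in KO (14.8%) and 4 in WT animals (3.07%). DESeq2 called 24 members in naive, 14 in morphine and 27 averaged (2.08%, 1.115% and 2.396% of all genes).

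With 1 library left out, counts were 11 to 17 in naive, 6 to 11 in morphine, 6 to 10 in both treatments, 19 to 24 averaged, 0 to 0 for the interaction, and for morphine 6 to 20 in KO and 4 to 14 in WT animals. The replicate block called 13 members in naive, 7 in morphine, 7 in both treatments, 21 averaged, 11 for morphine in KO and 5 in WT animals. Libraries share only a number: of 24 same-numbered pairs 6 had deviations correlated over 0.1 (r -0.32 to 0.38), so the numbers were not taken to pair them. The causes of these changes were not tested. Mettl21e rests on 0 to 28 counts a library, and all 434 words of Gm8210 are shared with other genes, which limits both.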
